A study of Apis mellifera with 6 samples.

Results

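The 7 troponin genes of the honey bee (Apis mellifera) midgut were examined: TpnI, TpnT and the troponin C genes TpnCI, TpnCIIa, TpnCIIb, TpnCIIIa and TpnCIIIb. They were taken by symbol from the 10041 genes of the deposited tables, and all 7 were present. Adult bees, taken per the methods from a single outbred colony in each experiment, drank sucrose for 24 h with 200 µM halofuginone in 0.5% DMSO or, as controls, with only the 0.5% DMSO. Halofuginone inhibits prolyl-tRNA synthetase and was given as an activator of the Integrated Stress Response (ISR), a pathway that slows translation under stress. Poly(A) RNA was sequenced from 3 midguts per group, each as its own library: Control 1, 2 and 3 and Halofuginone 2, 3 and 4.

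Troponin is the calcium switch of striated muscle. Troponin C binds calcium, troponin I holds the actin filament off in its absence, and troponin T ties the complex to tropomyosin. The insect midgut is an epithelial tube wrapped in visceral muscle, whose fibres carry troponin and drive peristalsis. Which cells of the midgut gave the troponin reads was not tested in these bulk libraries. In Drosophila troponin I and troponin T are each made from a single gene with many splice forms, whereas several troponin C genes serve different muscles. In the honey bee gene table used here TpnI had 21 RefSeq transcripts and TpnT had 9, and a read count per gene pools them.

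The libraries held between 23305398 (Control 1) and 26278866 (Control 2) reads over the listed genes, as recovered from the normalised counts. Reads of the 7 troponin genes made up 0.0215% to 0.0344% of each library, so troponin reads were a small part of a midgut library. Of the fixed marker names, Hbg2 and the gene listed under the synonym Hbg1 (AGLU2), both α-glucosidases of the midgut epithelium, summed to 984978 to 1680535 normalised counts per library, and none of the 3 flight muscle names had a row in the files. Names were matched by symbol or synonym and most listed genes carry numbers, so a missing row does not show absent expression. Values are given below as normalised read counts, that is, reads of a gene divided by a size factor of the library.

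TpnI, the inhibitory subunit, stood at 969, 2121 and 1599 normalised counts in Control 1, 2 and 3 and at 1794, 961 and 2374 in Halofuginone 2, 3 and 4. The groups overlapped, and 1 library of each group, Control 1 and Halofuginone 3, lay far below the rest. The log2FC (log2 fold change, halofuginone over control) in limma was 0.11 ± 0.39 (SE), with a 95% interval of −0.82 to 1.03, and the p adjusted over all genes was 0.906.

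TpnT, the tropomyosin-binding subunit, gave 985, 1758 and 1834 in the controls and 1816, 1070 and 2420 after halofuginone. The log2FC of TpnT was 0.19 ± 0.35 (SE) and its limma adjusted p 0.794. The same libraries were low as for TpnI.

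TpnCIIa and TpnCIIb, troponin C genes that encode calcium-binding subunits, followed this order at the low end. TpnCIIb had 414, 691 and 551 in the controls and 774, 329 and 781 after halofuginone, and its log2FC was 0.11 ± 0.36 (SE), at a limma adjusted p of 0.891. TpnCIIa had 198, 424 and 480 in the controls and 495, 264 and 359 after halofuginone, and its log2FC was 0.071 ± 0.37 (SE), at a limma adjusted p of 0.932. For TpnI, TpnT, TpnCIIa and TpnCIIb the group means lay within the spread between bees, and the direction of the fitted change turned when Control 1 was left out (log2FC of −0.20, −0.10, −0.32 and −0.080). The upper limits of their 95% intervals, 1.03 for TpnI, 1.01 for TpnT, 0.95 for TpnCIIa and 0.97 for TpnCIIb on the log2 scale, leave room for changes that these 6 bees could not resolve. In the gene table TpnT overlaps LOC113218844 and TpnCIIb overlaps LOC552209 (log2FC 0.14 ± 0.49, SE, limma adjusted p = 0.902), and the counting of shared reads and of strand is not stated, so the values of these genes carry that uncertainty.

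**Figure D1:**
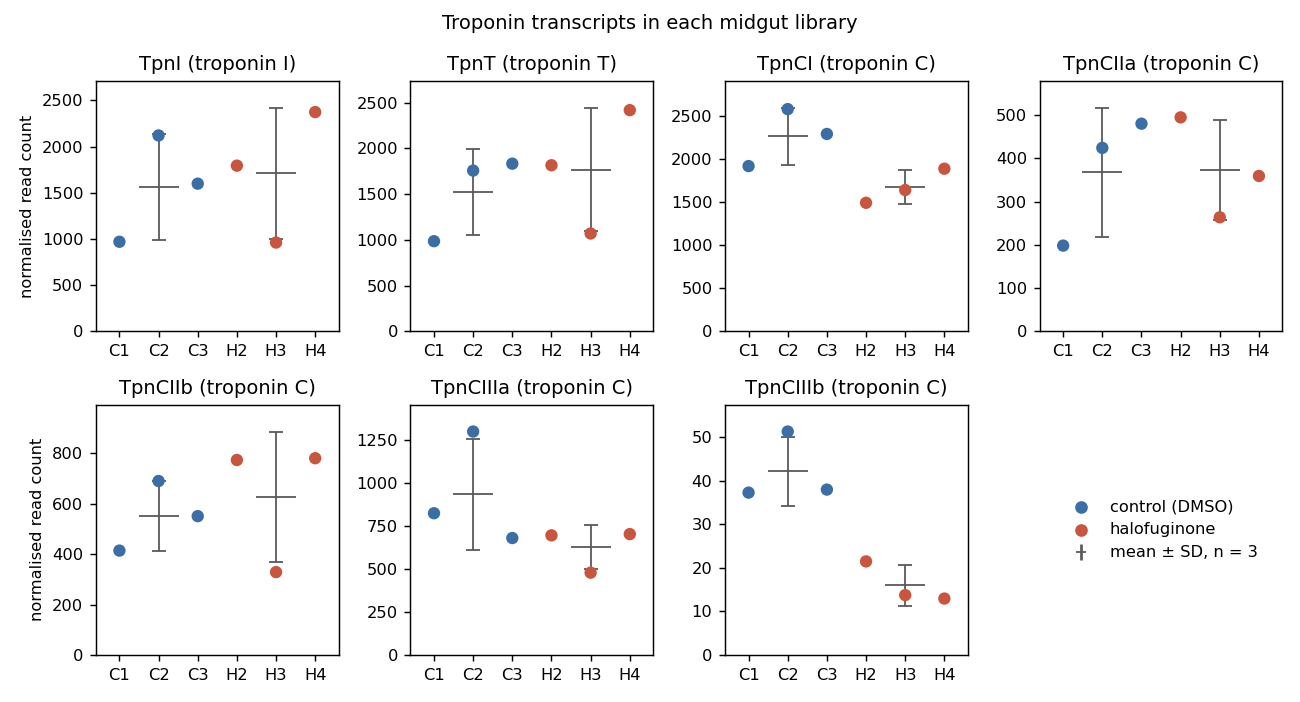
Normalised read count of each troponin gene in the 3 control (C1 to C3) and 3 halofuginone (H2 to H4) libraries, with the mean and SD of each group. C1 and H3 are low for TpnI, TpnT, TpnCIIa and TpnCIIb, whereas for TpnCI and TpnCIIIb every halofuginone library lies below every control.

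TpnCI and the TpnCIII pair did not follow that pattern. TpnCI, also a calcium-binding subunit, had 1914, 2574 and 2286 in the controls and 1488, 1636 and 1883 after halofuginone. The lowest control was just above the highest halofuginone library. The group means were 2258 ± 331 and 1669 ± 200 (SD, n = 3), a log2FC of −0.43 ± 0.15 (SE) with a 95% interval of −0.78 to −0.08. The unadjusted p in limma was 0.0232, and the adjusted p of 0.136 did not pass.

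TpnCIIIb had few reads, with 37.3, 51.3 and 38.0 normalised counts in the controls and 21.5, 13.7 and 12.9 after halofuginone. The groups were well apart, at 42.2 ± 7.91 and 16.1 ± 4.71 (SD, n = 3). The log2FC was −1.36 ± 0.34 (SE), with a 95% interval of −2.16 to −0.56, which ranked 121 from the lowest of 10041 genes. The unadjusted p in limma was 0.00489 and the adjusted p 0.0590, so this gene was not called. The value rests on few reads: 35, 52 and 37 in the controls and 22, 16 and 12 after halofuginone. Summed over bees this made 124 and 50 reads. With these sums divided by the summed size factors of each group, the ratio was 0.379. Its exact 95% interval of 0.267 to 0.530 covers counting error only.

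Within each group the reads of TpnCIIIb varied little more than counting error gives, with a chi-square per degree of freedom of 1.46 in the controls and 1.41 after halofuginone. At 12 to 52 reads per library this measure can hardly show differences between bees. For TpnI, with 910 to 2201 reads per library, it was 205 and 321. The measure grows with read number, so it does not show that bees differed less in TpnCIIIb than in TpnI. Choice of test decided the call. TpnCIIIb was called by DESeq2 on the recovered reads (log2FC −1.39, adjusted p = 0.0197) and by limma without a variance trend (adjusted p = 0.0487), but not by edgeR (adjusted p = 0.0546) or limma-voom (0.0587). With each library left out in turn its log2FC ran from −1.58 to −1.21 and its adjusted p in limma from 0.0814 to 0.203, and over all alternatives the adjusted p ran from 0.0197 to 0.203.

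TpnCIIIa lies next to TpnCIIIb in the gene order of assembly Amel_HAv3.1, with no gene between them. It had 822, 1296 and 678 in the controls and 694, 477 and 701 after halofuginone. The groups overlapped through Control 3, and the log2FC was −0.55 ± 0.27 (SE), at a limma adjusted p of 0.270. The log2 ratio of TpnCIIIb to TpnCIIIa was −4.43, −4.63 and −4.12 in the controls and −4.95, −5.02 and −5.65 after halofuginone, with the groups apart (difference −0.81, exact permutation test, two-sided, p = 0.1, the smallest that 3 bees against 3 allow). The next gene beyond TpnCIIIb, LOC100578238, gave −0.96 ± 0.43 (SE) on the same scale (limma adjusted p = 0.236), and LOC107965375 on the other side of the pair gave −0.37 ± 0.50 (SE, limma adjusted p = 0.709). Single libraries moved both: LOC100578238 was called without Control 1 (−1.48, limma adjusted p = 0.0192) and stood at −0.57 without Control 2, and LOC107965375 ran from −0.77 without Halofuginone 3 to 0.050 without Halofuginone 2. The sources used here do not say how reads matching both genes of the pair were counted.

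**Figure D2:**
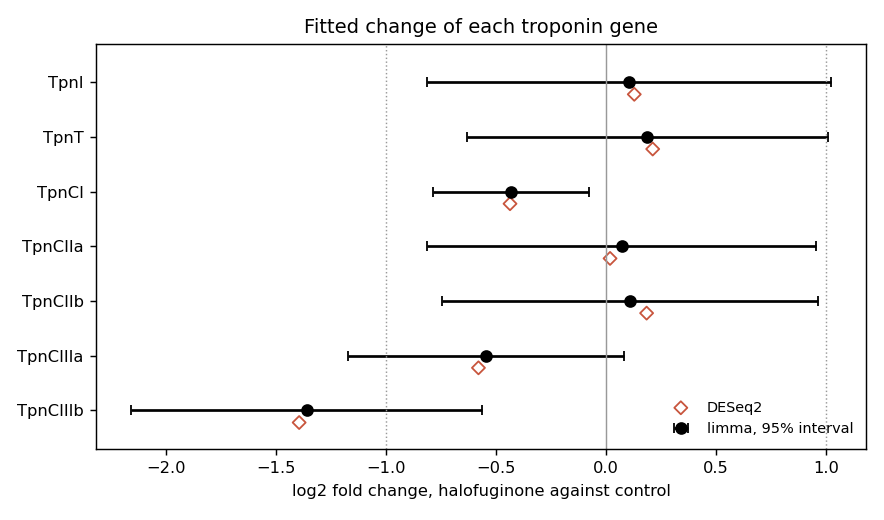
Log2 fold change of each troponin gene, halofuginone against control, in limma with its 95% interval (filled points) and in DESeq2 (open diamonds), with dotted lines at the fold threshold of −1 and 1. The intervals of TpnCI and TpnCIIIb lie below 0, and only the point of TpnCIIIb lies beyond −1.

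Over the family, limma called 0 of 7 genes when it was required that the log2FC exceed 1 in size and the adjusted p stay under 0.05, a rule that 2.37% of all genes met. The adjusted p alone was also passed by 0 of 7, against 6.88% of all genes. edgeR and limma-voom also called 0, and DESeq2 and limma without a trend called 1, TpnCIIIb. An unadjusted p below 0.05 was reached by 2 of the 7 (TpnCI and TpnCIIIb, both lower), against 23.7% of all genes in either direction and 10.9% lower. In the same 2 genes every halofuginone library lay below every control, as in 14.7% of all genes, and 30.6% of all genes had no overlap in either direction. The median log2FC was 0.071 over the 7 genes and −0.010 over all genes. These shares are small counts beside a high background, and nothing particular to the troponin genes is read from them.

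Marker genes of other cell types were followed in the same libraries. The 2 midgut epithelium genes summed to 1174288 to 1680535 in the controls and to 984978 to 1091167 after halofuginone. AGLU2 carried that gap, with 627783 to 752645 and 386002 to 463341 (log2FC −0.75 ± 0.41, SE, limma adjusted p = 0.322), whereas Hbg2 overlapped (log2FC −0.13 ± 0.47, SE, limma adjusted p = 0.901). The adjusted p of AGLU2 depended on the test, with 2.2e-05 in DESeq2, 0.0568 in limma without a trend, 0.0706 in limma-voom and 0.0865 in edgeR. Its log2FC stayed under the fold threshold in each. The 5 matched genes of the fat body and haemolymph list (Vg, Hex70a, HEX70b, Hex70c and Hex110, which encode yolk and storage proteins) summed to 735 to 973 and to 453 to 721, and Vg was lowest at 2.58 in Halofuginone 3. The 3 matched hypopharyngeal gland genes (Hbg3, Mrjp7 and Mrjp8) summed to 2866 to 4974 and 2160 to 3035. Within that list Hbg3, an α-glucosidase, was called lower, with 1244 to 1834 in the controls and 458 to 598 after halofuginone (log2FC −1.57 ± 0.18, SE, limma adjusted p = 0.00856, but 0.0528 without Control 3), and Mrjp7 and Mrjp8 overlapped. The 2 matched neuronal genes (Syt1 and brp) summed to 181 to 309 and 218 to 282. The epithelium sum, the fat body sum (narrowly), AGLU2 and Hbg3 thus did not overlap between the groups. Hex110 did not overlap either, with 121 to 192 in the controls and 105 to 113 after halofuginone. Vg, Hex70a, HEX70b and Hex70c each overlapped. Of all genes 14.7% were lower in every halofuginone library, and 30.6% had no overlap in either direction. The part of these levels in the lower values of TpnCI and TpnCIIIb was not tested.

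To ask whether the troponin genes go up and down together from bee to bee, each was set against TpnI over the 6 libraries on log2(normalised count + 1). In a bulk midgut less muscle and less troponin RNA per muscle cell cannot be told apart. Control 1 and Halofuginone 3 were the lowest libraries for TpnI, TpnT, TpnCIIa and TpnCIIb, which is 4 of the 7, whereas they were the lowest in 9.52% of all genes and in 9.27% of those with a mean of 5 CPM or more (reads scaled to the library total). This pattern was picked after the values were seen. Control 1 had the fewest reads of the 6 libraries, and Halofuginone 3, with 25151881, was the second deepest.

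The spread of these genes was wide for their level. The residual SD within groups was 0.62 on the log2 scale for TpnI, 0.55 for TpnT, 0.58 for TpnCIIa and 0.57 for TpnCIIb, against a median of 0.25 over all genes. Among the genes nearest in mean level these SDs stood at percentiles 95.8, 93.8, 94.6 and 95.6. TpnCI was steadier, with 0.19 and percentile 57.9, and TpnCIIIa lay between, with 0.41 and percentile 89.6. TpnCIIIb had 0.32, at percentile 21.0 among its own, low-count neighbours.

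**Figure D3:**
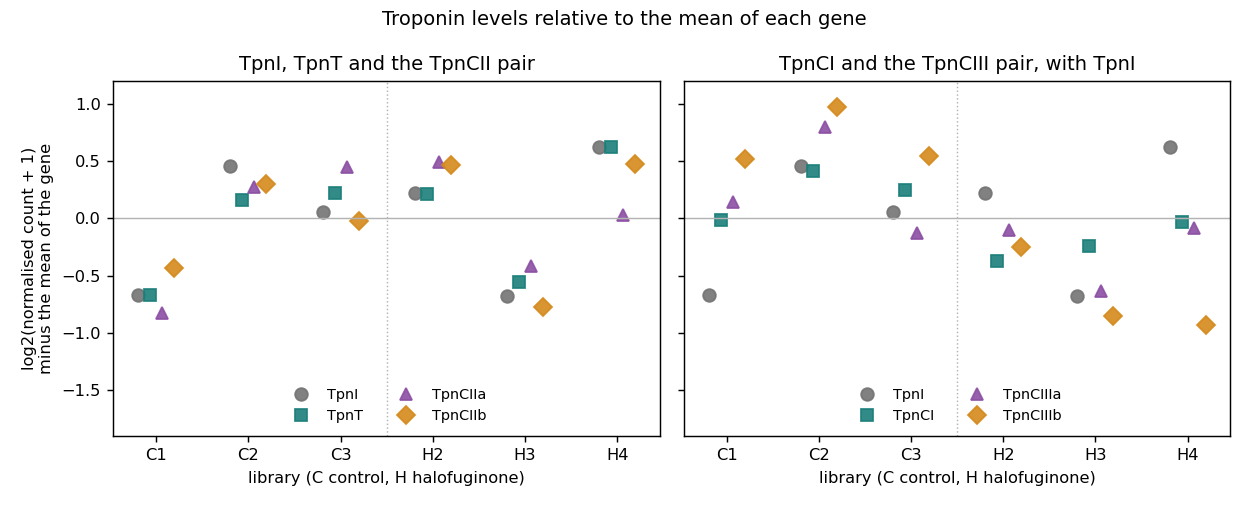
Log2(normalised count + 1) of each gene minus its mean over the 6 libraries, for TpnI, TpnT, TpnCIIa and TpnCIIb (left) and for TpnCI, TpnCIIIa and TpnCIIIb with TpnI for reference (right). On the left all genes dip in C1 and H3, and on the right TpnCIIIb is above its mean in every control and below it in every halofuginone library.

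Dividing by TpnI took out most of the spread for part of the family. The SD over the 6 libraries was 0.50 for the log2 level of TpnT and 0.16 for its log2 ratio to TpnI, and 0.51 and 0.19 for TpnCIIb. For TpnCIIa it went from 0.52 to 0.38. For TpnCI the ratio was more variable than the level, 0.54 against 0.29, as it was for TpnCIIIa (0.53 against 0.47) and TpnCIIIb (0.96 against 0.80).

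Pearson's r with TpnI was 0.96 for TpnT (rho = 0.71) and 0.94 for TpnCIIb (rho = 0.94). The permutation p of r was 0.0167 for TpnT and 0.00694 for TpnCIIb, and that of rho 0.136 and 0.0167. The Benjamini-Hochberg values over the 6 relations computed were 0.05 and 0.0417 for r and 0.408 and 0.1 for rho. For the others r was 0.76 for TpnCIIa (rho = 0.43, permutation p = 0.0917), 0.48 for TpnCIIIa (rho = 0.54, permutation p = 0.35), 0.33 for TpnCI (rho = 0.20, permutation p = 0.503) and 0.033 for TpnCIIIb (rho = −0.029, permutation p = 0.953), with adjusted values for r of 0.183 to 0.953.

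Every r was lower without the pair of low libraries. Without Control 1 and Halofuginone 3, which lie farthest from the TpnI median, r over the remaining 4 libraries was 0.67 for TpnT, 0.70 for TpnCIIb, −0.92 for TpnCIIa, 0.36 for TpnCIIIa, 0.059 for TpnCI and −0.43 for TpnCIIIb. Leaving out the libraries most extreme in TpnI narrows its range, which by itself lowers r. These 4 libraries thus cannot settle how far each relation rested on the pair. When group means were subtracted first, r with TpnI was 0.96 for TpnT, 0.94 for TpnCIIb, 0.76 for TpnCIIa, 0.71 for TpnCIIIa, 0.70 for TpnCI and 0.36 for TpnCIIIb. For TpnCI and TpnCIIIa this was well above the value over the libraries as they stand.

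**Figure D4:**
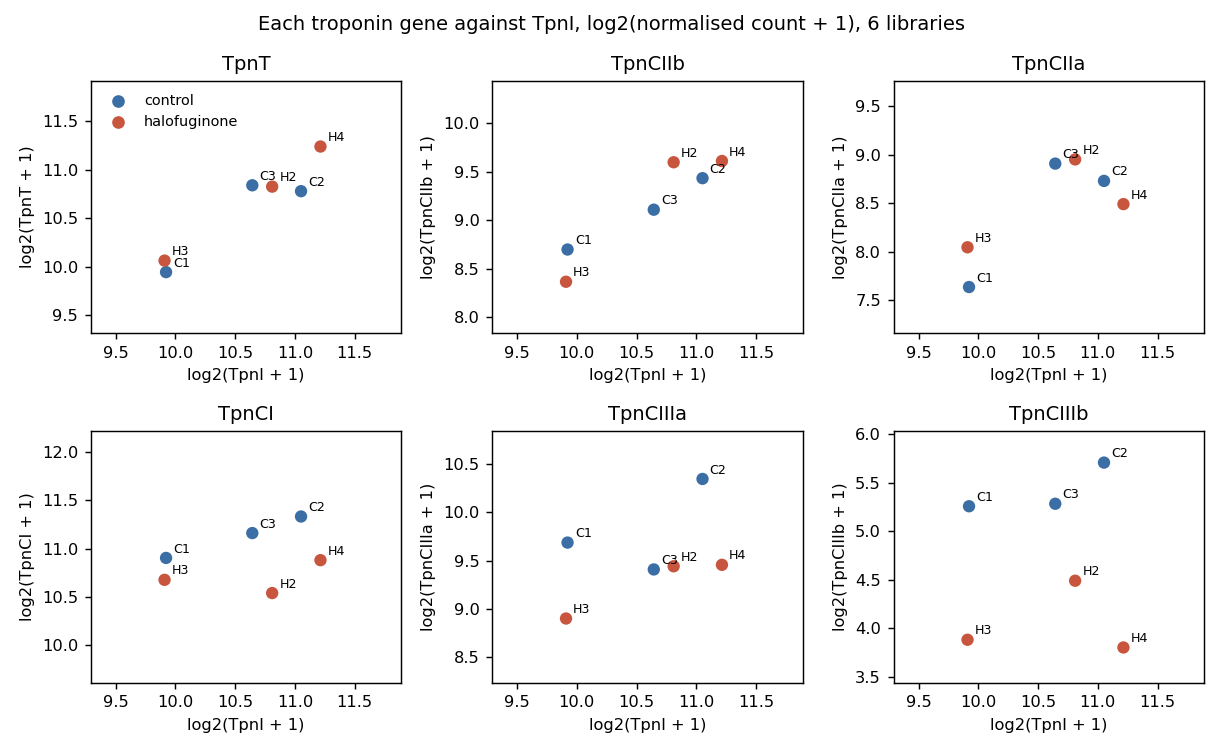
Log2(normalised count + 1) of 6 troponin genes against TpnI in the same library, every axis spanning the same log2 range. Points of TpnT and TpnCIIb lie along a rising line with C1 and H3 at its foot, and those of TpnCIIIb form a control row above a halofuginone row.

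The ratios to TpnI were compared between the groups to set each gene against another subunit of the complex. TpnCIIIb was at 0.0395, 0.0246 and 0.0244 of the TpnI value in the controls and at 0.0125, 0.0153 and 0.00587 after halofuginone. These did not overlap, and the difference was −1.46 on the log2 scale (exact permutation test, two-sided, p = 0.1, Benjamini-Hochberg over the 6 ratios 0.6). It was −1.55 relative to TpnT and −1.51 relative to the mean of TpnI and TpnT, each with the same exact p of 0.1. For TpnCI the ratio was 1.97, 1.21 and 1.43 in the controls and 0.830, 1.70 and 0.793 after halofuginone. The high value in Halofuginone 3 made the groups overlap (difference −0.54, exact permutation p = 0.3). The difference was −0.89 without Halofuginone 3 and −0.34 without Control 1, the library with the highest ratio. For TpnCIIIa the difference was −0.65 (exact permutation p = 0.2), and for TpnT, TpnCIIa and TpnCIIb it was 0.083, −0.034 and 0.0060 (exact permutation p of 0.8, 1.0 and 0.8). No ratio passed the adjusted value, which this design cannot bring below 0.1.

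The mix of troponin C isoforms was followed as the share of each gene in the reads counted at the 5 troponin C genes. Longer transcripts yield more reads, and no transcript lengths were used, so each gene is compared between libraries and not with another gene. The total behind these shares was 3168 to 5105 reads per library. TpnCIIIb held 1.10%, 1.02% and 0.941% of the reads in the controls and 0.618%, 0.505% and 0.346% after halofuginone, with no overlap. The Wilson 95% intervals were 0.793% to 1.53%, 0.778% to 1.33% and 0.684% to 1.29% in Control 1, 2 and 3. They were 0.409% to 0.934%, 0.311% to 0.819% and 0.198% to 0.604% in Halofuginone 2, 3 and 4. Those of Halofuginone 2 and 3 overlapped the interval of each control, and that of Halofuginone 4 lay below all of them. The mean was 1.02% ± 0.0799 and 0.490% ± 0.137 (SD, n = 3). By the exact permutation test (two-sided) p was 0.1, and 0.5 after adjustment for the 5 genes by Benjamini-Hochberg.

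TpnCIIb held 12.2%, 13.7% and 13.7% in the controls and 22.3%, 12.1% and 20.9% after halofuginone. Halofuginone 2 and 4 were above every control and Halofuginone 3 was below them, so that the means of 13.2% ± 0.837 and 18.4% ± 5.53 (SD, n = 3) differed by less than the spread after treatment (exact permutation p = 0.4). TpnCI was at 56.5%, 51.1% and 56.7% in the controls and at 42.9%, 60.2% and 50.4% after halofuginone (exact permutation p = 0.6). In Halofuginone 3 the share of TpnCI was the highest of the 6 and that of TpnCIIb the lowest.

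TpnCIIIa held 16.8% to 25.7% in the controls and 17.6% to 20.0% after halofuginone (exact permutation p = 0.4). TpnCIIa held 5.85% to 11.9% and 9.61% to 14.2% (exact permutation p = 0.4). The summed normalised count of the 5 genes was 3386, 5036 and 4034 in the controls and 3473, 2720 and 3738 after halofuginone.

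**Figure D5:**
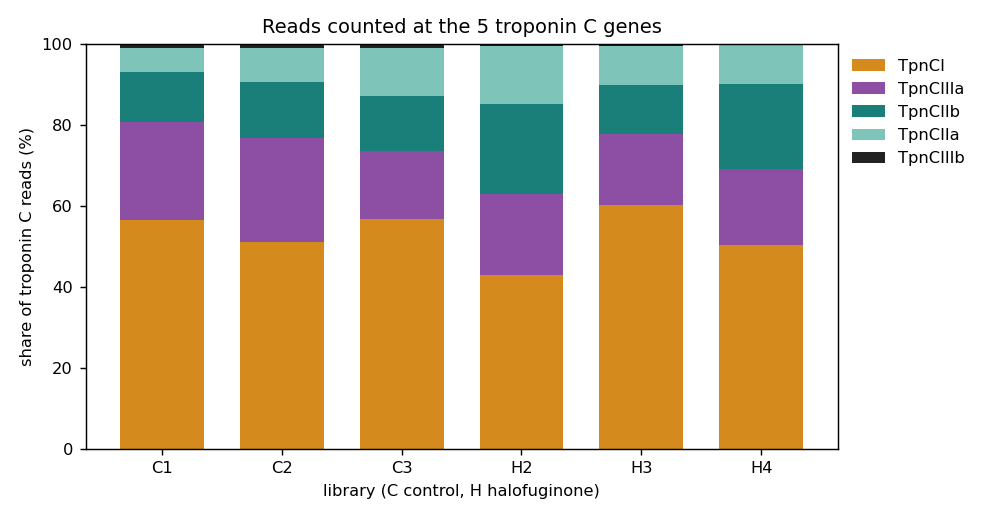
Share of the reads counted at the 5 troponin C genes in each library, in percent and not corrected for transcript length. The TpnCIIb share is larger in H2 and H4 than in the controls but not in H3, and the thin TpnCIIIb band at the top is about 1% in the controls.

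Other muscle genes could be followed only in part, since most genes of the files carry numbers and no name. Of the 37 sarcomere and muscle names fixed for the comparison, 1 had a row, Arp1, which carries the symbol of actin-related protein 1. Whether Arp1 marks muscle in these libraries was not tested. Its r with TpnI was −0.059, and it was the 1 gene of this list that was called, at a log2FC of −1.01 ± 0.21 (SE), limma adjusted p = 0.0401. That call was lost without any one of the 6 libraries (adjusted p from 0.0586 to 0.133). With all libraries, DESeq2 (adjusted p = 0.000128), edgeR (0.0402) and limma-voom (0.0392) also called Arp1. Of the 16 calcium handling names, 1 had a row, Camkii, the calmodulin-dependent kinase, whose log2FC was −0.13 ± 0.17 (SE), limma adjusted p = 0.701, and whose r with TpnI was 0.71. Argk encodes arginine kinase, which buffers ATP in insect muscle, and was singled out after its values were seen. It had 21213, 43834 and 37277 in the controls and 45445, 28044 and 59726 after halofuginone, with Control 1 and Halofuginone 3 again lowest. Its r with TpnI was 0.95, which ranked 26 among the 7164 other genes at 5 CPM or more. Its log2FC was 0.38 ± 0.37 (SE), limma adjusted p = 0.583. Ant and Calpb, which were looked at besides, had an r with TpnI of 0.77 and −0.27.

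Of the 7165 genes at 5 CPM or more on average, a set that leaves out TpnCIIIb, 100 had an r above 0.9 with TpnI. TpnT came 19th in this order, TpnCIIb 30th, TpnCIIa 447th, TpnCIIIa 1351st and TpnCI 1910th. The 10 genes outside the lists that were most like TpnI had r values of 0.975 to 0.988 and no name in the files or the gene table. LOC102654169 came first, with 1922 to 2445 normalised counts, a much narrower range than that of TpnI. LOC406152 had an r of 0.982 and ran from 1569 in Halofuginone 3 to 6821 in Halofuginone 4. The widest range belonged to LOC406114, with 322, 18988 and 6877 in the controls and 26296, 247 and 55046 after halofuginone and an r of 0.982. None of the 10 was called. These correlations describe 6 libraries that share the same low pair and are no sign of shared function.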

How the data were processed

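Midgut libraries of 3 control and 3 halofuginone-fed bees were compared, grouped by their titles. The authors trimmed the reads (Trimmomatic 0.36), mapped them to an older assembly than that of the gene table and counted them per gene, and per the labels STAR, Subread and DESeq2 were used. The sources used here do not state strand use or other versions. The deposited values are a normalised signal, reads divided by 1 size factor per library. Dividing by the step worth 1 read returned whole reads for 100% of values (tolerance 0.01 reads), and these reads entered the count tests. Intervals of reads and shares cover counting error only. The p-values of group comparisons rest on the spread between 3 bees per group, which limma, edgeR and DESeq2 estimate with the help of other genes. Permutation p-values of r and rho shuffle all 6 libraries without regard to group.

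All 10041 genes entered limma (3.58.1, R 4.3.3) on log2(value + 1) with a variance trend, group as the only term and Benjamini-Hochberg adjustment over all genes. This scale understates changes of low genes. Calls needed an adjusted p under 0.05 together with a log2FC over 1 in size. Ratios and shares were compared with exact permutation tests. Alternatives were DESeq2 (1.42.0), edgeR (4.0.16, quasi-likelihood, TMM), limma-voom, no trend, TMM and library-total scaling, pseudocounts of 0.5 and 4, a minimum of 5 CPM, blocks and left-out libraries. Limma was also run on simulated counts in which spread depended on expression level alone, and no result here rests on that run.

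The genes named were the 7 members, matched list genes and the 10 genes with the highest r to TpnI. Members and lists were chosen with earlier results of these data known. Names and gene order came from a RefSeq table of Amel_HAv3.1, another build, in which 9225 of the symbols occur, and no coordinates are given. Without transcript lengths the planned division of isoform shares by length was not run. Sequences were not analysed here. Python 3.11.15 with scipy 1.17.1 was used for the other steps.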

Additional observations from a re-analysis of the deposited data

How the results depend on the processing

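The limits below come from 3 bees per group, few reads for TpnCIIIb and libraries that decide the direction of 4 genes. Causes were not tested. TpnCI, TpnCIIIa and TpnCIIIb stayed lower after halofuginone in every alternative run (log2FC −0.64 to −0.33, −0.75 to −0.28 and −1.58 to −1.21). The minimum of 5 CPM left TpnCIIIb out and gave no value for it, and isoform shares per transcript length were not run. With DESeq2 and with limma without a trend 1 troponin gene was called. The replicate numbers 2 and 3 occur in both groups. Deviations from the group means had an r across genes of 0.071 and −0.033 for same-numbered libraries. For libraries of one table it was −0.18, −0.15 and −0.11, and for the other combinations 0.0087 to 0.16. With 3 bees per group these values cannot settle whether number or table pairs the bees, and the main fit used no pairing. With the replicate number as a block 3 genes of the table were called, and with the deposited table as a block 7, against 238 without, and TpnCIIIb had adjusted p values of 0.186 and 0.174. Control 1 and Halofuginone 4 share their number with no library of the other group. The contrast in the replicate block, with its 3 calls, thus rests on the libraries numbered 2 and 3 alone. In that contrast the log2FC of TpnI, TpnT, TpnCIIa and TpnCIIb were −0.49, −0.36, −0.32 and −0.29. On the recovered reads DESeq2 called 385 genes and edgeR 243, the adjusted p alone was passed by 691, and left-out libraries gave 47 (Control 3), 63 (Control 2), 126 (Halofuginone 4) and up to 277.

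With edgeR TpnCIIa was at −0.0019. With libraries left out the log2FC ran from −0.20 to 0.47 for TpnI, −0.10 to 0.51 for TpnT, −0.32 to 0.31 for TpnCIIa and −0.10 to 0.52 for TpnCIIb. It turned without Control 1 for all 4 (−0.20, −0.10, −0.32, −0.080), without Halofuginone 4 for TpnI (−0.18), TpnT (−0.077) and TpnCIIb (−0.098), and without Halofuginone 2 for TpnCIIa (−0.16) and TpnCIIb (−0.092). The log2 ratio to TpnI then ran from −0.044 to 0.19 for TpnT, −0.18 to 0.25 for TpnCIIa −0.11 to 0.12 for TpnCIIb, −0.89 to −0.34 for TpnCI, −0.90 to −0.41 for TpnCIIIa and −1.74 to −1.05 for TpnCIIIb, with TpnCIIa at 0.16 without Control 3, and TpnCIIb at −0.077 relative to TpnT and −0.036 relative to the mean of TpnI and TpnT. The TpnCI share difference was −8.15 to 0.51 percentage points, turning without Halofuginone 2. The r of TpnCIIb with TpnI was 0.93 to 0.97 with libraries left out. It then did not pass the adjusted value. With a library left out the smallest permutation p of a single relation adjusts to 0.05, so this loss was largely set by the number of libraries. With library totals r was 0.92 and its adjusted permutation p of 0.05 did not pass, while TpnT then passed (r = 0.94, adjusted permutation p = 0.0417). The r of TpnCIIIb was −0.41 to 0.50 with libraries left out and −0.13 with library totals, that of TpnCI 0.077 to 0.59 and 0.012, and that of TpnCIIIa 0.13 to 0.71 and 0.30. With group means subtracted r was 0.70 for TpnCI, 0.71 for TpnCIIIa and 0.36 for TpnCIIIb. Arp1 was not called in limma without a trend, with limma on library totals, with either block or without any one library, leaving 0 of 1 genes of that list. With library totals its limma adjusted p of 0.0369 passed and its log2FC of −0.92 did not. The other settings called Arp1.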
